A study of Mus musculus with 10 samples.

Results

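Precursors of the cDC1 lineage of conventional dendritic cells (cDCs), called pre-cDC1, were compared between mice with and without a deletion of Adam10. The comparison rested on 6 of the 10 libraries of the series, and it covered every gene whose deposited log2 RPKM value was above 0 in at least 3 of those 6. RPKM is reads per kilobase of gene, scaled to the size of the library. By that rule 11837 of the 52550 genes of the table were members.

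Dendritic cells take up antigen and present it to T cells. The cDC1 lineage depends on the transcription factors IRF8, BATF3 and ID2, bears XCR1, CLEC9A and, at a later stage, the integrin CD103, and is known for presenting material from dead cells to CD8+ T cells. Its precursors divide in bone marrow and spleen in response to FLT3L, the ligand of the receptor FLT3. ADAM10 is a membrane protease that cuts surface proteins near the membrane, among them FLT3L, which the series title concerns, and Notch receptors.

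The WT group was 3 pre-cDC1 libraries from the spleens of C57BL/6 mice. The KO group was 3 pre-cDC1 libraries from the spleens of C57BL/6 mice of the genotype CD11c-cre Adam10fl/fl, with Cre under the CD11c promoter and loxP sites around a part of both Adam10 alleles. No Cre-only or floxed-only control is among the 6 libraries. CD11c is made by mature cDCs and by other spleen cells too, so that any of those cells may carry the deletion besides pre-cDC1. Each library was amplified from 2 ng of total RNA. The labels do not say that replicates came from separate animals, so the p-values measure only the spread between these libraries, which may be technical.

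Reads recovered from the deposited values summed to 9743960, 9868334 and 11052817 in the WT libraries and to 11357800, 10442570 and 7922955 in the KO libraries. The 10 most abundant genes held 12.3% to 15.3% of them. Pearson's r over the members was 0.886 to 0.905 within groups and 0.853 to 0.89 between groups, and all WT libraries had negative and all KO libraries positive positions on the first principal component (28.7% of the variance). In the KO library labelled replicate 3, the smallest of the 6, the cytosolic ribosomal protein genes averaged 7.13 log2 RPKM, against 6.48 and 6.53 in the other KO libraries and 6.11 to 6.25 in WT.

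The libraries were first checked against the pre-cDC1 label. All 15 genes chosen as its markers were members. Irf8 lay at 9.38, 9.37 and 9.43 log2 RPKM in the WT libraries and at 9.54, 9.56 and 9.27 in KO, which placed its mean 40th among the members. Naaa, Xcr1, Clec9a, Wdfy4, Cd24a, Id2, Tlr3 and Flt3 all had group means of at least 6.63 log2 RPKM in both genotypes. Batf3 was at 4.58 in WT and 4.75 in KO. No defining pre-cDC1 marker was near 0 in either group.

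Adam10 itself (ENSMUSG00000054693.14, GRCm38, chromosome 9, 70678997 to 70780229, plus strand) was not a member. Its values were -0.64, 0.13 and -2.29 log2 RPKM in the WT libraries and -2.45, -3.90 and -1.50 in KO, from 28, 48 and 10 reads and from 9, 3 and 13 reads. The groups overlapped. The value of a gene includes exons outside the loxP-flanked part, and does not show whether it was deleted. Adam17, the closest relative of ADAM10 among sheddases, differed by -0.13 ± 0.21 log2 (KO minus WT, standard error of the limma fit, 3 libraries a group, as for every ± on a difference here). Of 24 genes of the sheddase machinery, which holds ADAM proteases with their tetraspanin and iRhom partners and gamma-secretase, 16 were members and 0 passed the test. The smallest p of the 16 belonged to Tspan17, a tetraspanin partner of ADAM10. Tspan17 was at 3.92, 4.29 and 4.48 log2 RPKM in the WT libraries and 3.60, 3.43 and 3.12 in KO (-0.84 ± 0.20, limma adjusted p = 0.141).

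Flt3 was at 7.49, 7.43 and 7.5 log2 RPKM in the WT libraries and at 7.5, 7.74 and 7.40 in KO, a difference of 0.07 ± 0.11 with overlapping groups. Flt3l was close to the filter in both groups, at -0.02, 0.38 and -0.08 in WT and 0.47, -0.15 and 0.30 in KO (0.11 ± 0.49). Of the 19 tested genes among FLT3 and other growth factor receptors with their signalling partners, 0 passed the test, and the median difference was -0.02 log2 (0.00 with quantile normalization), against -0.00 over all genes. Csf1r, the receptor for CSF1 and IL-34, had the smallest p of these. It was at 3.78, 3.35 and 3.92 in WT and 2.87, 1.83 and 1.91 in KO (-1.48 ± 0.31, limma adjusted p = 0.111). The Notch list, 15 tested genes with 0 called, had a median of 0.16 log2, and Notch2 differed by 0.16 ± 0.15.

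Across all members, limma called 82 genes at an adjusted p below 0.05, which is 0.693% of those tested. Lower in KO were 69 genes (0.583%) and higher were 13 (0.11%). The 3 KO values lay wholly outside the WT range in 2262 genes (19.1%), 1212 lower (10.2%) and 1050 higher (8.87%), and all 82 called genes were among them. The median difference over all genes was -0.00 log2, the 5th percentile -0.96 and the 95th 0.95. The mean was lower in KO in 5991 genes (50.6%) and higher in 5823 (49.2%). At least 2-fold lower were 558 genes and at least 2-fold higher 547, of which 49 and 11 were called. Only 3 of the 61 genes that passed the filter through the WT libraries alone were called, and 1 of the 49 that passed through KO alone.

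The count of calls leaned on single libraries. Without WT replicate 2 or WT replicate 3, limma called 0 genes, with 1208 and 1226 at an unadjusted p below 0.05, against 1541 in all 6 libraries. It called 13 without WT replicate 1, and 38, 42 and 27 without KO replicates 1, 2 and 3. Sharing the spread with all 10 libraries gave 15 calls. With voom on recovered reads, chosen after the data were seen, 198 genes passed, 53 higher and 145 lower (26.8% higher, against 15.9% in the log2 RPKM fit). Every call named below is a call of the fit to the 6 libraries alone. Counts called in each list stand beside 0.583% of all genes tested called lower and 0.11% called higher. The lists were chosen with earlier results of these data known and share genes, so their counts are neither tests nor separate observations. Calls also varied with level, with 12 of 322 genes above 7 log2 RPKM called lower and 2 of 2393 below 1.

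**Figure D1:**
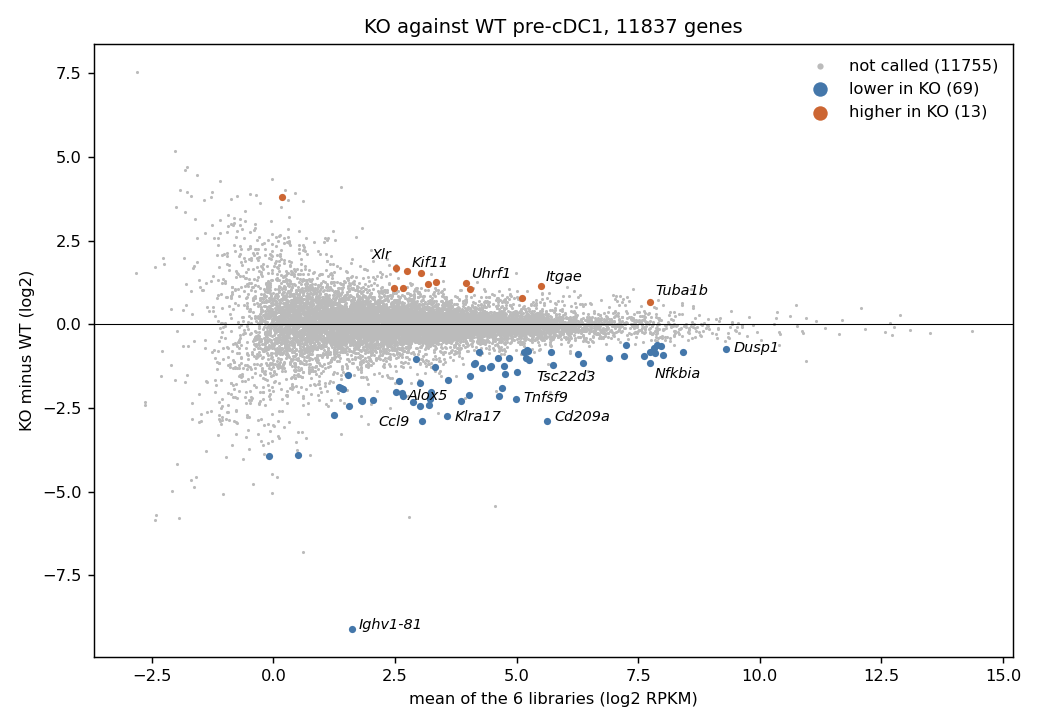
Difference between KO and WT (log2, vertical axis) against the mean of the 6 libraries (log2 RPKM, horizontal axis) for each of the 11837 genes tested. Blue points are the 69 genes called lower in KO and orange points the 13 called higher, which include genes from low to high level.

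**Figure D2:**
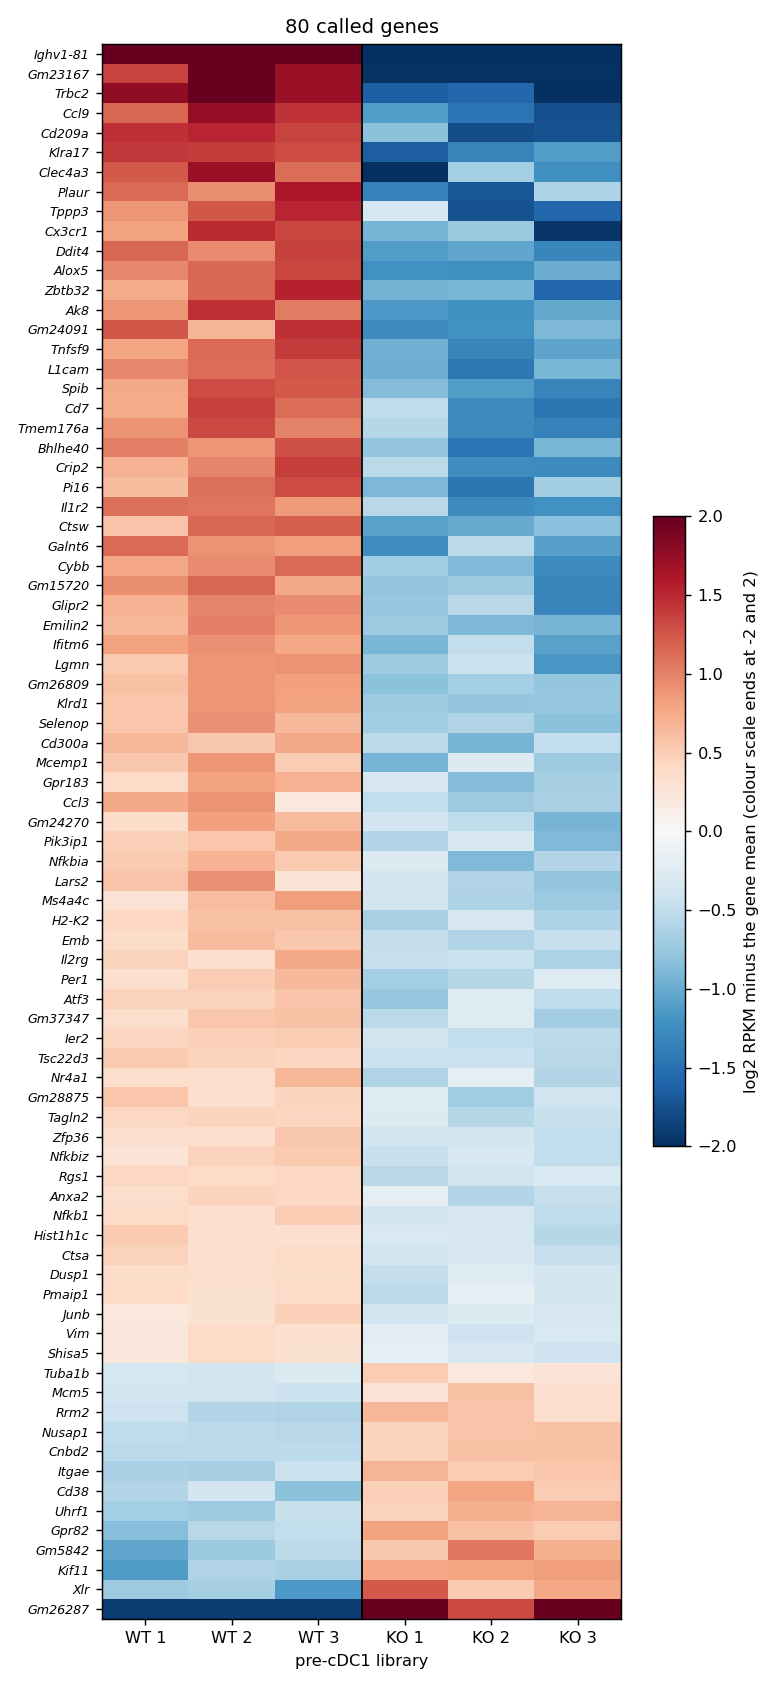
Values of 80 of the 82 called genes (rows, from the largest fall to the largest rise) in the 6 libraries (columns), coloured by log2 RPKM minus the mean of the gene. In each row drawn the 3 WT libraries lie on one side of the mean and the 3 KO libraries on the other, and the colour scale ends at -2 and 2.

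Genes of the cDC1 programme were mostly at the same level or above WT. Of 32 tested, 2 were called higher, Itgae and Xlr, and 0 lower, 26 had a higher mean in KO, and the median difference was 0.27 log2. In 19 the KO libraries all lay above the WT libraries, and in 0 all below, against 8.87% and 10.2% of all genes tested. Itgae (ENSMUSG00000005947.11, chromosome 11, 73090583 to 73147446, plus strand) encodes CD103, the integrin that binds E-cadherin. It was at 4.85, 4.83 and 5.06 log2 RPKM in the WT libraries and 6.18, 6.00 and 6.05 in KO, higher by 1.16 ± 0.11 (limma adjusted p = 0.0092). Haspin, a mitotic kinase, lies inside Itgae on the other strand and differed by 1.35 (adjusted p = 0.234), and since the strand setting of the counting is not given in the sources used here, shared reads cannot be told apart. Xlr, an X-linked lymphocyte-regulated gene, was at 1.79, 1.85 and 1.37 in WT and 3.74, 3.04 and 3.29 in KO (1.69 ± 0.25, limma adjusted p = 0.0407). It belongs to a multigene family, so its value is uncertain.

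Surface receptors of the lineage had higher means in KO without passing the test. Xcr1, the receptor for XCL1, was at 7.89, 7.68 and 7.58 log2 RPKM in the WT libraries and 8.30, 8.30 and 8.25 in KO (0.57 ± 0.10, limma adjusted p = 0.0664). Btla, an inhibitory receptor, had WT values of 8.53, 8.31 and 8.20 and KO values of 8.85, 8.98 and 8.84 (0.55 ± 0.11, adjusted p = 0.095). Clec9a, the receptor for exposed actin of dead cells, differed by 0.38 ± 0.08 (adjusted p = 0.11). In each of these receptors the lowest KO library was above the highest WT library. The lineage transcription factors had smaller differences and overlapping groups, with Irf8 at 0.06 ± 0.10, Batf3 at 0.17 ± 0.15, Id2 at -0.14 ± 0.12, Nfil3 at -0.15 ± 0.37 and Zbtb46, a factor of all cDCs, at -0.01 ± 0.11. Cd8a differed by -0.02 ± 0.12. With quantile normalization Cd8a and Zbtb46 were at 0.023 and 0.0226, on the other side of 0. Of 24 tested core cDC genes, 1 was called lower, Tmem176a, a membrane protein of DCs. Tmem176a had values of 3.55, 3.97 and 3.65 in WT and 2.08, 1.38 and 1.30 in KO, a difference of -2.14 ± 0.26 (limma adjusted p = 0.0235). Its neighbour on the other strand, Tmem176b, overlaps it and differed by -1.98 ± 0.37 (adjusted p = 0.079).

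**Figure D3:**
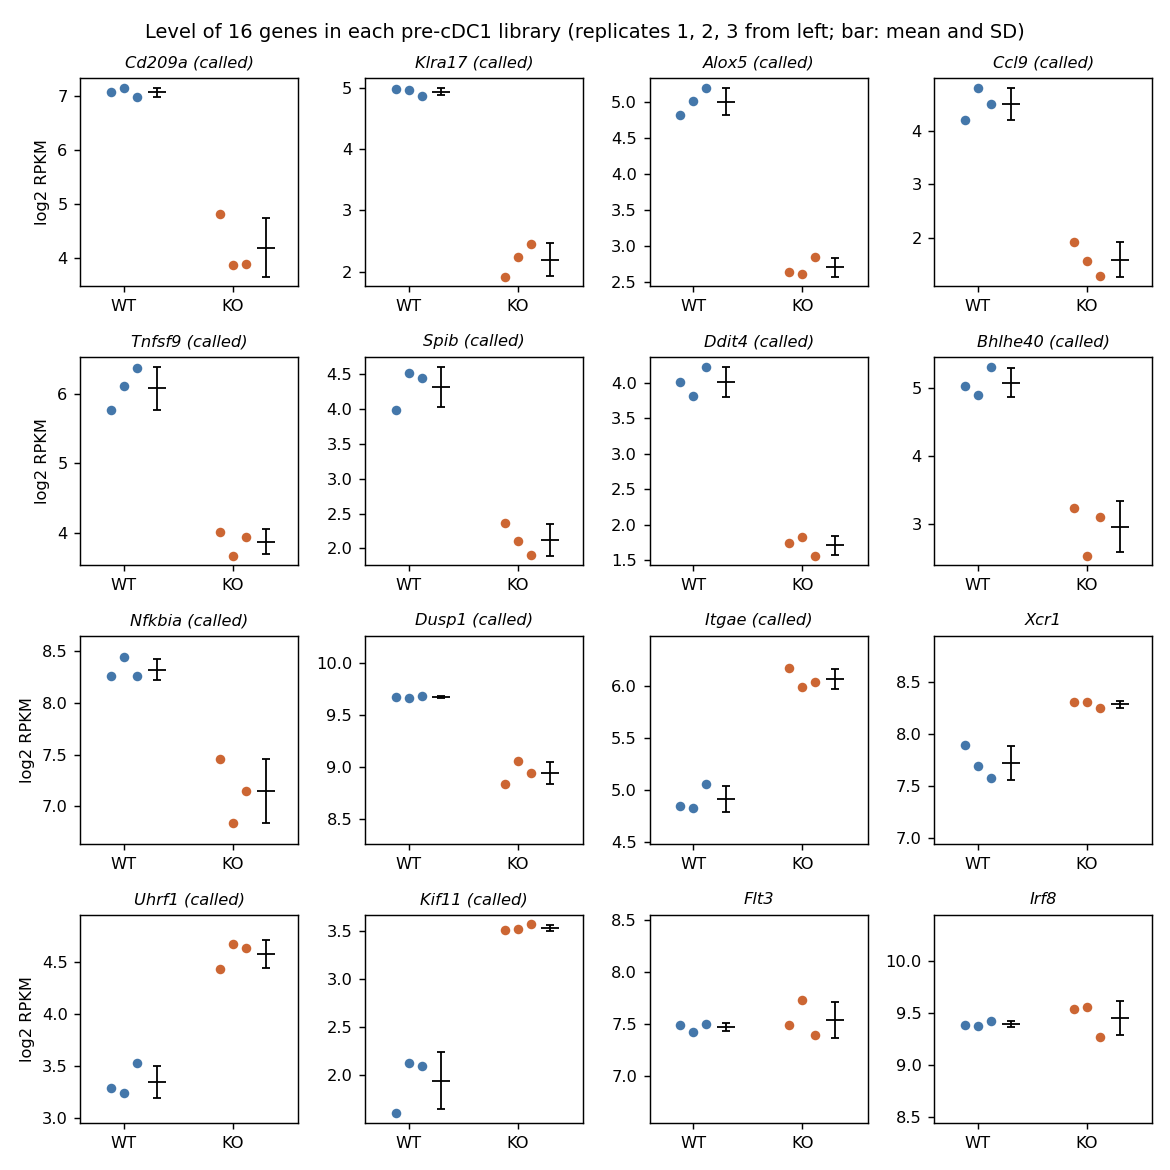
Level (log2 RPKM, vertical axes) of 16 genes in each WT (blue) and KO (orange) library, with the mean and SD of each group in black. Genes marked as called passed the limma test, and Xcr1, Flt3 and Irf8 did not.

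Markers of other spleen cells were present and lower in KO for most cell types. In bulk RNA, fewer cells of a type and less RNA per cell cannot be told apart. The summed RPKM of the B cell list was 718 to 834 in WT and 444 to 498 in KO, with Pax5 and Vpreb3 at 0 reads in all 6 libraries. Most of that sum is from Ighm, the constant region of IgM, which differed by -0.39 ± 0.10 (limma adjusted p = 0.159). For T cell markers it was 20.2 to 34.4 in WT and 7.78 to 9.94 in KO, and for NK cell markers 113 to 120 and 59.8 to 61.1. Monocyte markers summed to 2482 to 2641 in WT and 1585 to 1920 in KO, red pulp macrophage markers to 1658 to 1888 and 969 to 1292, and neutrophil markers to 177 to 209 and 72.6 to 150. In these 6 lists the KO libraries all lay below the WT libraries. The lysozyme gene Lyz2 is in both the monocyte and the macrophage list. It holds most of both sums, so those lists are not separate observations. Erythroid markers were above WT, at 48.2 to 73.4 in WT and 84.3 to 120 in KO, while those of platelets (19.6 to 22.95 and 21.1 to 31.3) overlapped.

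Not all of these markers were members, and some passed the test, beside 0.583% of all genes tested called lower. Members were 9 of 20 B cell markers, 7 of 24 T cell, 9 of 22 NK, 14 of 23 monocyte, 9 of 20 neutrophil, 12 of 22 red pulp macrophage and 13 of 23 erythroid markers. The called ones were Trbc2 for T cells, Klrd1 for NK cells, Nr4a1 for monocytes and Il1r2 for neutrophils, all lower, and 0 of the B cell, macrophage and erythroid lists. Nr4a1 is also in the list of immediate early genes, and Klrd1 in that of lectin-like receptors, both described below. Igkc, the immunoglobulin kappa constant region, was at 6.28, 7.99 and 7.57 log2 RPKM in the WT libraries and 1.16, 0.26 and 4.12 in KO (-5.43 ± 0.94, limma adjusted p = 0.0633). Lyz2, lysozyme of monocytes and macrophages, was at 10.67, 10.80 and 10.62 in WT and 10.24, 9.82 and 10.19 in KO (-0.61 ± 0.12, adjusted p = 0.109). Hba-a1, a globin of red cells, was at 2.15, 2.57 and 2.87 in WT and 4.55, 3.76 and 4.88 in KO (1.87 ± 0.32, adjusted p = 0.0587). The part of these cells in the gene groups that follow was not tested.

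**Figure D4:**
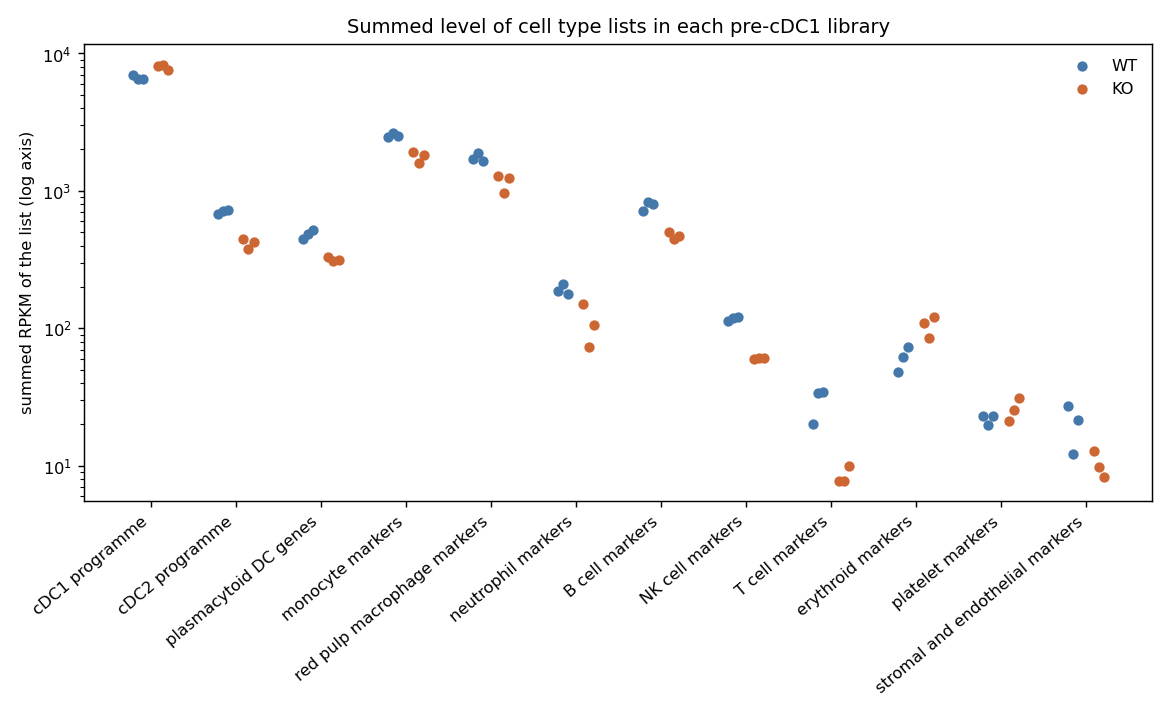
Summed RPKM (log axis) of 12 cell type lists in each WT (blue) and KO (orange) pre-cDC1 library. Lyz2 is in both the monocyte and the red pulp macrophage list and holds most of both sums, and Ighm holds most of the B cell sum. The sums of the cDC1 programme, 6491 to 7020 in WT and 7623 to 8274 in KO, are above those of every other list drawn, and the KO libraries lie below the WT libraries in 8 of the 12 lists, the 6 lists of blood and macrophage markers and the cDC2 and plasmacytoid lists.

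Genes of the cDC2 programme, the sister lineage, were mostly lower in KO. Of 24 tested, 5 were called lower and 0 higher, and 21 had a lower and 3 a higher mean. In 16 the groups did not overlap with KO below, against 10.2% of all genes tested. The median difference was -1.46 log2, and -1.95 to -1.07 with 1 library left out. Esam had the highest difference, 0.74 ± 0.67, with overlapping groups. The list summed to 677 to 730 RPKM in WT and 376 to 448 in KO. Cd209a (ENSMUSG00000031494.7, chromosome 8, 3743397 to 3748984, minus strand), a C-type lectin related to DC-SIGN, fell from 7.08, 7.14 and 6.98 log2 RPKM in the WT libraries to 4.81, 3.86 and 3.89 in KO, by 2.88 ± 0.25 (limma adjusted p = 0.0057). Its level in WT was above that of any other called gene of the list. Tnfsf9, the ligand of 4-1BB, was at 5.77, 6.12 and 6.38 in WT and 4.01, 3.66 and 3.93 in KO (-2.22 ± 0.18, adjusted p = 0.0057). Cd7, a surface glycoprotein of the immunoglobulin family, was at 5.38, 6.01 and 5.75 in WT and 4.13, 3.37 and 3.21 in KO (-2.15 ± 0.27, adjusted p = 0.0244).

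Also called lower were the fractalkine receptor Cx3cr1, at 4.0, 4.69 and 4.54 log2 RPKM in the WT libraries and 2.28, 2.46 and 1.25 in KO (-2.41 ± 0.34, limma adjusted p = 0.0363), and the inhibitory lectin Clec4a3, at 2.48, 2.97 and 2.36 in WT and -0.91, 0.56 and 0.02 in KO (-2.71 ± 0.43, adjusted p = 0.047). In both genes every KO library was below every WT library, and Cx3cr1 as annotated overlaps Csrnp1, which differed by -0.76 (adjusted p = 0.103). Sirpa, the receptor used to mark cDC2, fell short of the test at 2.52, 3.18 and 3.69 in WT and 1.34, 0.84 and 1.20 in KO (-2.0 ± 0.33, adjusted p = 0.0525). Irf4, a transcription factor of the lineage, was at 2.38, 2.60 and 2.73 in WT and 1.65, 0.77 and -2.84 in KO (-2.71 ± 1.05, adjusted p = 0.334), and the low value came from KO replicate 3. Clec12a and Ccr2, which pre-cDC1 and other DCs share, differed by -0.16 and 0.12 and were not called.

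Genes of plasmacytoid DCs, the interferon-producing relatives of cDCs, were also lower. Of 28 tested, 3 were called lower and 0 higher, the median was -0.65 log2, and the list summed to 448 to 515 RPKM in WT and 306 to 330 in KO. Klra17 (ENSMUSG00000014543.14, chromosome 6, 129831154 to 129876672, minus strand), which encodes the lectin-like receptor Ly49Q, fell from 4.98, 4.96 and 4.87 log2 RPKM to 1.92, 2.24 and 2.45, by 2.74 ± 0.17 (limma adjusted p = 0.00492). Klra17 has near relatives in the Ly49 family, so reads may be split between them. Spib, an ETS factor of plasmacytoid DCs and B cells, was at 3.98, 4.52 and 4.45 in WT and 2.36, 2.10 and 1.90 in KO (-2.19 ± 0.21, adjusted p = 0.00852). Cybb, the catalytic subunit of the phagocyte NADPH oxidase, was at 5.48, 5.64 and 5.83 in WT and 4.0, 3.81 and 3.42 in KO (-1.91 ± 0.18, adjusted p = 0.00829). The most specific genes of plasmacytoid DCs differed less surely. Siglech was at 3.03, 3.07 and 3.81 in WT and 2.19, 2.0 and 1.92 in KO (-1.26 ± 0.25, adjusted p = 0.10), and Tcf4, their defining factor, was at 1.82, 2.02 and 2.22 in WT and 1.48, 1.31 and 1.57 in KO (-0.57 ± 0.24, adjusted p = 0.367).

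Lists of lectin-like and chemoattractant receptors held the calls Klrd1 and Gpr183, besides Klra17 and Cx3cr1 of the programmes above. Of 16 tested lectin-like receptors of the NK gene complex, 2 were called lower, Klra17 and Klrd1, 15 had a lower mean in KO, and the median was -1.0 log2. Klrd1 encodes CD94, which pairs with NKG2 receptors. It lay at 5.32, 5.65 and 5.58 log2 RPKM in the WT libraries and 4.06, 4.0 and 4.01 in KO (-1.49 ± 0.13, limma adjusted p = 0.0057), beside the NK marker sums given above. Of 21 tested chemoattractant receptors, 2 were called lower, Cx3cr1 and Gpr183, and the median of -0.76 log2 became -0.45 without WT replicate 2 and -0.37 without KO replicate 2. The summed RPKM of these receptors was 812 to 843 in WT and 830 to 889 in KO, with Xcr1, Ccr2 and Cxcr3 the most abundant. Gpr183, or EBI2, senses oxysterols and places DCs in the spleen. It was at 5.12, 5.56 and 5.43 in WT and 4.41, 3.87 and 4.08 in KO (-1.25 ± 0.18, adjusted p = 0.0371).

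Of 23 tested chemokines and cytokines, 3 were called lower, Ccl9, Ccl3 and Tnfsf9, and the median was -0.53 log2. Ccl9, a ligand of CCR1, was at 4.20, 4.80 and 4.49 log2 RPKM in the WT libraries and 1.93, 1.58 and 1.28 in KO (-2.90 ± 0.23, limma adjusted p = 0.0057). Ccl3, another ligand of CCR1, was at 5.24, 5.38 and 4.68 in WT and 3.99, 3.75 and 3.82 in KO (-1.24 ± 0.20, adjusted p = 0.0454). Its neighbour and relative Ccl4 differed by -0.85 ± 0.17 (adjusted p = 0.0975). Plaur, the urokinase receptor, and Il1r2, the decoy receptor for IL-1, were called lower as well, by 2.45 ± 0.36 and 2.01 ± 0.22. A transcript of unsettled coding status, Gm37347, lies within Il1r2 on the same strand and was called lower too (-1.0 ± 0.14, limma adjusted p = 0.0363), and the overlap leaves the reads of the pair uncertain.

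Immediate early genes, which cells switch on within minutes of a stimulus, were lower in KO at high levels. Of 39 tested, 6 were called lower and 0 higher, 34 had a lower mean, and the median was -0.46 log2. The list summed to 5031 to 5285 RPKM in WT and 3327 to 3797 in KO. Ier2, a nuclear early response protein, was at 7.63, 7.68 and 7.70 log2 RPKM in the WT libraries and 6.79, 6.70 and 6.68 in KO (-0.94 ± 0.08, limma adjusted p = 0.0057). Dusp1, the phosphatase that switches off MAP kinases, was at 9.67, 9.66 and 9.68 in WT and 8.83, 9.05 and 8.94 in KO (-0.73 ± 0.08, adjusted p = 0.0176). Zfp36, or tristetraprolin, which destroys cytokine mRNAs, was at 8.78, 8.78 and 8.97 in WT and 8.03, 8.06 and 7.93 in KO (-0.84 ± 0.09, adjusted p = 0.0147). In each of the 3 the spread within groups was small beside the step between them. The stress factor Atf3 (-1.0 ± 0.14), the orphan nuclear receptor Nr4a1 (-0.91 ± 0.15) and the AP-1 subunit Junb (-0.66 ± 0.09) were called too. Junb overlaps Prdx2 on the other strand, which differed by -0.06.

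Of 40 tested NF-kB genes, 4 were called lower and 0 higher, 34 had a lower mean, and the median was -0.30 log2. Nfkbia (ENSMUSG00000021025.8, chromosome 12, 55489410 to 55492647, minus strand) encodes the inhibitor IkB-alpha, which NF-kB itself induces. It was at 8.25, 8.43 and 8.26 log2 RPKM in the WT libraries and 7.46, 6.85 and 7.15 in KO (-1.17 ± 0.16, limma adjusted p = 0.0309). Nfkbiz, a nuclear IkB protein, was at 5.42, 5.61 and 5.67 in WT and 4.71, 4.83 and 4.66 in KO (-0.84 ± 0.12, adjusted p = 0.0334). Nfkb1, the subunit p105, was at 4.61, 4.55 and 4.72 in WT and 3.84, 3.88 and 3.71 in KO (-0.82 ± 0.12, adjusted p = 0.0429). The fourth was Ccl3. Cd83, a maturation marker of DCs, just missed the test at 7.72, 7.61 and 7.85 in WT and 7.23, 7.07 and 7.09 in KO (-0.60 ± 0.10, adjusted p = 0.0549).

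Genes known to respond to glucocorticoids or to FOXO factors were lower as a list, with 5 of 31 tested called lower, 0 higher, 28 with a lower mean and a median of -0.28 log2. Ddit4 (chromosome 10, 59949669 to 59951834, minus strand), or REDD1, restrains mTORC1. It fell from 4.01, 3.81 and 4.23 log2 RPKM to 1.74, 1.83 and 1.56, by 2.31 ± 0.18 (limma adjusted p = 0.0057). Tsc22d3, or GILZ, was at 8.14, 8.07 and 8.05 in WT and 7.18, 7.19 and 7.06 in KO (-0.94 ± 0.08, adjusted p = 0.0057). Pik3ip1, an inhibitor of PI3 kinase, was at 4.61, 4.69 and 4.89 in WT and 3.54, 3.81 and 3.26 in KO (-1.20 ± 0.17, adjusted p = 0.0392). The remaining calls were Dusp1 and Per1. Per1 is also a clock gene, and at 4.96, 5.14 and 5.28 in WT and 3.94, 4.06 and 4.37 in KO it differed by -1.0 ± 0.16 (adjusted p = 0.0453).

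Of 15 tested clock genes the second called was Bhlhe40, a transcriptional repressor known in the clock and in cytokine control. Bhlhe40 was at 5.03, 4.90 and 5.31 log2 RPKM in the WT libraries and 3.24, 2.54 and 3.11 in KO (-2.12 ± 0.22, limma adjusted p = 0.0119). The median of the clock list, -0.15 log2, moved to -0.03 without WT replicate 1 and to -0.48 without WT replicate 2.

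Early response promoters are shown because the letters of known control sites can be read in them beside these falls. Sequences are from RefSeq (GRCm38.p6), and a window of 250 bases before to 50 bases after the annotated start was found for 7948 of the 11837 members. The 250 bases before the start are printed 5′ to 3′ on the strand of the gene, and positions count back from the start, with -1 the base before it. In Nfkbia (chr12:55492648-55492897, minus strand) capitals mark a match to the NF-kB consensus site at -29 to -20. In Dusp1 (chr17:26508473-26508722, minus strand) they mark a CRE, TGACGTCA, at -143 to -136 and an E-box, CACGTG, at -126 to -121.
Nfkbia: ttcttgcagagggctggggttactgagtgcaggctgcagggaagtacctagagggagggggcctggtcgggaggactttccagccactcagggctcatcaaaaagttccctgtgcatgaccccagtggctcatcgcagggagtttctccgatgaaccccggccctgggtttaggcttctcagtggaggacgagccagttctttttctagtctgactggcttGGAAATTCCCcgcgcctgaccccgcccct
Dusp1: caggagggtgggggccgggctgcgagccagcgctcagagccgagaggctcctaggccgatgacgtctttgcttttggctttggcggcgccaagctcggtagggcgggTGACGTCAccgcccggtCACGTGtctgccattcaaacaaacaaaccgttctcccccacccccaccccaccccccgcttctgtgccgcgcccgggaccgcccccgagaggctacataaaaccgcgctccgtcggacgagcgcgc
Both strands were searched. Lists and members were counted by gene, among genes with a window, and a match in any window of a gene sufficed. All 32851 windows were counted singly, so their shares are not of the same unit. The NF-kB consensus was in 14 of 31 NF-kB genes (45.2%), in 11.965% of members and in 8.46% of all windows. Of 45 genes called lower, 10 held it (22.2%). The CRE was added to the search after the lists were set. It was in 4 of 35 immediate early genes (11.4%), against 3.66% of members and 1.79% of all windows. The E-box was in 10 of those 35 (28.6%) and in 4 of 12 clock genes (33.3%). Its shares were 12.2% of members and 7.15% of all windows. The glucocorticoid receptor palindrome was in 3 of 28 genes of the glucocorticoid and FOXO list (10.7%), against 0.315% of members. Of the 45 genes called lower, 0 held this palindrome, 5 the E-box (11.1%) and 2 the CRE (4.44%). A match describes letters and is not a bound site.

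Genes of cell division were higher in KO. Of 70 tested mitosis genes 67 had a higher mean in KO, 3 were called higher and 0 lower, and the median was 0.81 log2. In 45 all KO libraries lay above all WT libraries and in 0 all below, against 8.87% and 10.2% of all genes tested. The list summed to 958 to 1049 RPKM in WT and 1278 to 1467 in KO. Kif11, the kinesin that pushes spindle poles apart, was at 1.6, 2.13 and 2.09 log2 RPKM in the WT libraries and 3.52, 3.52 and 3.57 in KO (1.6 ± 0.20, limma adjusted p = 0.024). Nusap1, a spindle protein, was at 1.98, 1.94 and 1.92 in WT and 2.92, 3.05 and 3.07 in KO (1.07 ± 0.17, adjusted p = 0.0469). Tuba1b, an alpha tubulin of the spindle and of the resting cytoskeleton, was at 7.41, 7.38 and 7.47 in WT and 8.26, 7.97 and 8.02 in KO (0.66 ± 0.10, adjusted p = 0.0432). Tuba1b has near-identical relatives, and Nusap1 overlaps Oip5 on the other strand, so their values are uncertain. Among those not called, Top2a was at 2.92, 2.61 and 2.97 in WT and 3.94, 3.73 and 3.88 in KO (1.02 ± 0.16, adjusted p = 0.0507), and Mki67, the marker of cycling cells, differed by 1.11 ± 0.21 (adjusted p = 0.0909).

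DNA replication genes had higher means too, in 44 of 49 tested, with 3 called higher, 0 lower and a median of 0.54 log2. Uhrf1 (chromosome 17, 56303321 to 56323486, plus strand), which keeps DNA methylation through replication, was at 3.28, 3.23 and 3.52 log2 RPKM in the WT libraries and 4.42, 4.67 and 4.63 in KO (1.23 ± 0.14, limma adjusted p = 0.0213). Rrm2, a subunit of ribonucleotide reductase, was at 3.64, 3.47 and 3.45 in WT and 4.71, 4.61 and 4.40 in KO (1.06 ± 0.14, adjusted p = 0.0309). Mcm5, part of the replicative helicase, was at 4.75, 4.73 and 4.68 in WT and 5.40, 5.70 and 5.45 in KO (0.80 ± 0.12, adjusted p = 0.0407). The KO libraries were alike in these genes, including replicate 3. The list of G1 and S phase entry had 0 of 28 genes called and a median of -0.04 log2, or 0.01 with voom. Among these, Cdkn1a, the inhibitor p21, was at 3.81, 3.68 and 3.92 in WT and 2.23, 2.83 and 3.25 in KO (-1.04 ± 0.26, adjusted p = 0.155).

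The promoters of Kif11 and Top2a are shown because the mitosis genes were high together and most carry the CHR element, TTTGAA, bound by the DREAM complex and its partners, and the CCAAT box, CCAAT. Capitals mark both on either strand. In Kif11 (chr19:37376132-37376381, plus strand) the CHR is at -19 to -14 and the CCAAT box at -45 to -41. In Top2a (chr11:99024190-99024439, minus strand) CHR matches are at -179 to -174 and -23 to -18, and 8 matches are marked in all.
Kif11: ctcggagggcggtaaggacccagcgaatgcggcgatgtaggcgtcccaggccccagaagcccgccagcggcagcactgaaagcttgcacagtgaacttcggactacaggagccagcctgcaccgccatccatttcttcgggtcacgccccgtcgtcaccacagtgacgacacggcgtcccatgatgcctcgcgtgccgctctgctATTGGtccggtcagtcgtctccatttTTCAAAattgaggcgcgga
Top2a: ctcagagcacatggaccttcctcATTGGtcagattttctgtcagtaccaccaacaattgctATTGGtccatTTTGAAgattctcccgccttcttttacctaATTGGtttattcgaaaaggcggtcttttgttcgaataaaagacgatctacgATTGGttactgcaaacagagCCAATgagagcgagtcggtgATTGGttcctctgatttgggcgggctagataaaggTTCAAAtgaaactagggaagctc
Counted by gene as above, the CHR was in 38 of 55 mitosis genes with a window (69.1%), against 14.7% of members and 17.9% of all windows. The CCAAT box was in 39 of these 55 (70.9%), against 43.1% and 37.4%. It was more frequent still in 2 lists with lower medians in KO. These were clock genes (11 of 12, 91.7%) and cholesterol synthesis (17 of 19, 89.5%). Other lists with lower medians had it in 17 of 28 glucocorticoid and FOXO, 18 of 35 immediate early, 10 of 31 NF-kB and 4 of 16 cDC2 genes. The CHR was in 6 of 16 cDC2 genes (37.5%), 0 of 12 clock genes and 1 of 19 cholesterol synthesis genes. Of 40 DNA replication genes with a window, 6 held the CHR (15%) and 24 the CCAAT box (60.0%). Among 9 genes called higher with a window, 1 held the CHR and 6 the CCAAT box.

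**Figure D5:**
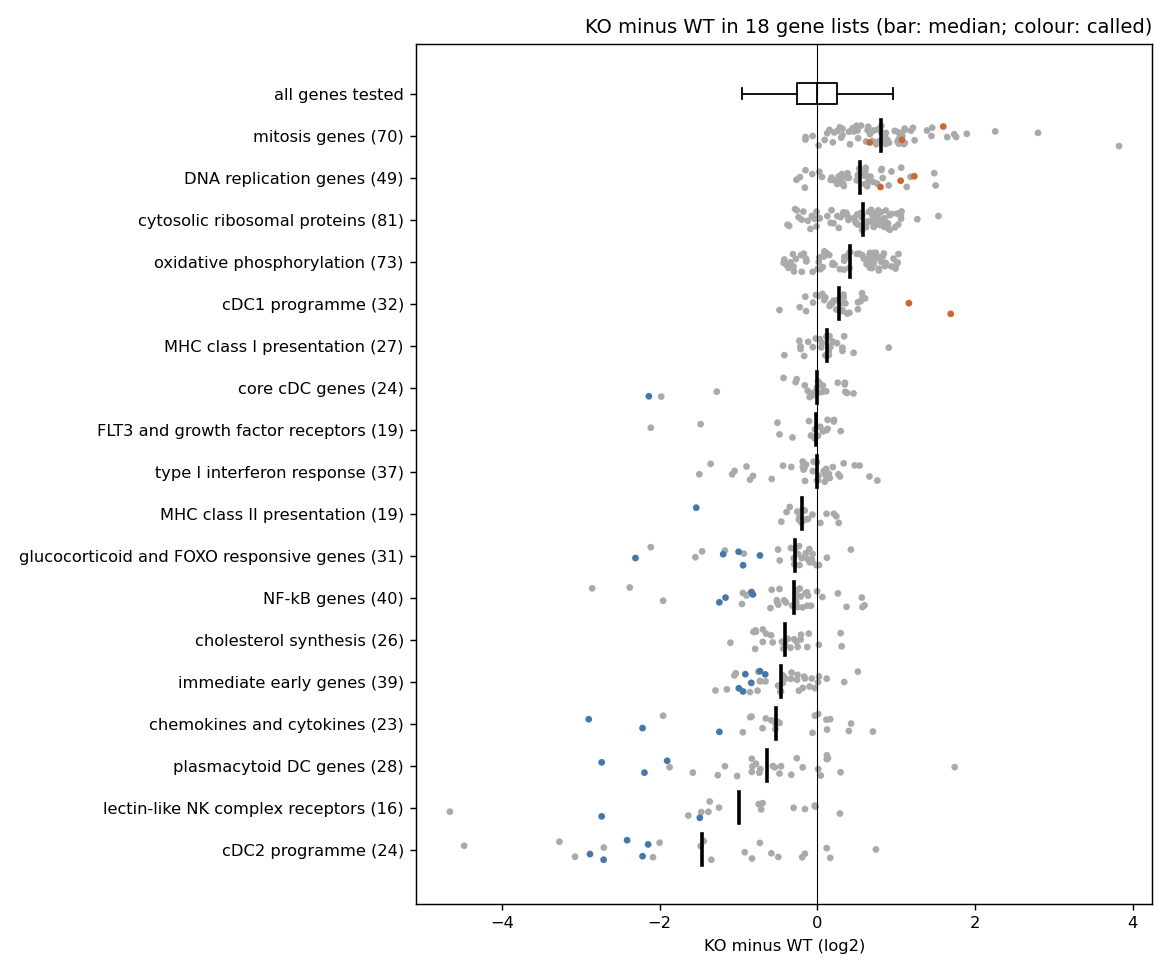
Difference between KO and WT (log2, horizontal axis) of each tested member of 18 gene lists, with the number of members in brackets. Black bars are medians, from 0.81 for mitosis genes to -1.46 for the cDC2 programme, blue and orange points are genes called lower and higher, and the box at the top spans the quartiles of all genes tested, with whiskers at the 5th and 95th percentiles.

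Calls among antigen presentation genes were counted beside those over all genes tested, of which 0.583% were called lower and 0.11% higher. Of 19 tested MHC class II genes 1 was called lower and 0 higher, with a median of -0.19 log2 that became -0.04 without KO replicate 2. The call was Lgmn, or legumain, an endosomal protease that cuts antigen, at 4.58, 4.93 and 4.94 log2 RPKM in the WT libraries and 3.33, 3.62 and 2.89 in KO (-1.54 ± 0.21, limma adjusted p = 0.0334). Cd74, the invariant chain and the most abundant gene of the libraries, was at 14.45, 14.50 and 14.43 in WT and 14.55, 13.999 and 14.22 in KO. Its groups overlapped. Of 27 tested class I genes 0 were called, and the median was 0.12 log2. H2-K2, a class I relative outside that list, was called lower (-1.06 ± 0.13, adjusted p = 0.0235), and its reads may be split with H2-K1, which differed by -0.22 ± 0.07.

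The list of lysosomal proteases and related genes included 3 calls among 31 tested, all lower. The sum of the list was higher in KO (19042 to 19105 RPKM, against 15501 to 16253 in WT). Its most abundant members, Psap and Cst3, are not proteases, so the sum does not measure proteases alone. Psap and Cst3 differed by 0.27 and 0.49 and were not called. The calls were Lgmn, Ctsa and Ctsw. Ctsa, a carboxypeptidase that protects lysosomal enzymes, was at 5.68, 5.54 and 5.6 log2 RPKM in the WT libraries and 4.83, 4.89 and 4.75 in KO (-0.78 ± 0.10, limma adjusted p = 0.0309). Ctsw, a cathepsin of cytotoxic cells, was at 2.0, 2.58 and 2.62 in WT and 0.36, 0.42 and 0.60 in KO (-1.94 ± 0.29, adjusted p = 0.0407). Of 26 tested maturation and costimulation genes 1, Tnfsf9, was called lower, with a median of -0.21 log2. Of 22 Toll-like receptor pathway genes and 37 type I interferon response genes 0 were called, and their medians were 0.04 log2 (-0.05 without KO replicate 2) and -0.01 log2 (0.01 with quantile normalization). Tlr3, the endosomal receptor for double-stranded RNA of cDC1, was at 6.84, 6.46 and 6.60 in WT and 7.08, 7.30 and 7.05 in KO (0.51 ± 0.13, adjusted p = 0.151).

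Of the metabolic lists, cholesterol synthesis was lower in 23 of 26 genes, with 0 called and a median of -0.41 log2. Msmo1, a sterol oxidase of that pathway, was at 3.83, 4.0 and 4.12 log2 RPKM in the WT libraries and 3.17, 2.85 and 2.62 in KO (-1.1 ± 0.19, limma adjusted p = 0.0588). Respiratory chain and ATP synthase genes had a median of 0.41 log2 with 0 of 73 called. That median was 0.16 without KO replicate 3 and 0.65 without KO replicate 1. Cytosolic ribosomal protein genes had a median of 0.58 log2 with 0 of 81 called, and 0.33 without KO replicate 3, the library in which they stood highest. Rplp1, a stalk protein of the ribosome, was at 8.20, 8.11 and 7.87 in WT and 8.69, 9.0 and 9.67 in KO (1.06 ± 0.23, adjusted p = 0.123).

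Among the 41 called genes in no list, the lipid mediator enzyme Alox5 (ENSMUSG00000025701.12, chromosome 6, 116410077 to 116461178, minus strand) shared the lowest adjusted p with Klra17. Alox5 encodes 5-lipoxygenase, which starts leukotriene synthesis. It fell from 4.81, 5.01 and 5.19 log2 RPKM in the WT libraries to 2.64, 2.62 and 2.86 in KO, by 2.3 ± 0.15 (limma adjusted p = 0.00492). L1cam, an adhesion molecule known from neurons that overlaps Arhgap4, was at 4.17, 4.32 and 4.46 in WT and 2.23, 1.78 and 2.29 in KO (-2.22 ± 0.19, adjusted p = 0.0057). Selenop, the secreted carrier of selenium, was at 5.58, 5.93 and 5.67 in WT and 4.32, 4.41 and 4.20 in KO (-1.41 ± 0.13, adjusted p = 0.00829). Tagln2, an actin-binding protein, was at 8.26, 8.30 and 8.28 in WT and 7.57, 7.28 and 7.41 in KO (-0.86 ± 0.10, adjusted p = 0.0166).

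The other annotated genes called lower in no list spanned levels from low to high. Differences of about 4-fold or more were found for the tubulin regulator Tppp3 (-2.44), the zinc finger repressor Zbtb32 (-2.28), the adenylate kinase Ak8 (-2.26), Crip2 (-2.04) and Pi16 (-2.03). Between 2-fold and 4-fold lay the glycosyltransferase Galnt6 (-1.91), Glipr2 (-1.75), the matrix protein gene Emilin2 (-1.70), Ifitm6 (-1.66), the inhibitory receptor Cd300a (-1.30), Mcemp1 (-1.29), the mitochondrial leucyl-tRNA synthetase Lars2 (-1.16), Ms4a4c (-1.16), Emb (-1.03) and the common cytokine receptor chain Il2rg (-1.02). Smaller falls at high level were those of the signalling regulator Rgs1 (-0.83), the membrane-binding annexin Anxa2 (-0.82), the linker histone gene Hist1h1c (-0.80), the intermediate filament Vim (-0.63) and Shisa5 (-0.62). Pmaip1, or NOXA, a death-promoting member of the BCL2 family, was the 1 call among 26 tested BCL2 family and caspase genes. Of all genes tested, 0.693% were called. Pmaip1 was at 8.22, 8.13 and 8.21 log2 RPKM in the WT libraries and 7.29, 7.66 and 7.45 in KO (-0.72 ± 0.11, limma adjusted p = 0.0429).

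Called higher in no list were 4 annotated genes besides a small RNA gene. The orphan receptor gene Gpr82, which lies within Cask, was at 2.49, 2.79 and 2.85 log2 RPKM in the WT libraries and 4.14, 3.92 and 3.86 in KO (1.26 ± 0.17, limma adjusted p = 0.0309). Cd38, an enzyme that consumes NAD, was at 2.59, 2.80 and 2.35 in WT and 3.66, 3.98 and 3.69 in KO (1.20 ± 0.18, adjusted p = 0.0447). Cnbd2, with a cyclic nucleotide binding domain, differed by 1.07 ± 0.16, and the predicted pseudogene Gm5842, which overlaps Tbl1xr1, by 1.54 ± 0.21.

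Antigen receptor segments gave the largest called fall. Ighv1-81 (chromosome 12, 115920279 to 115920712, minus strand), a variable segment of the immunoglobulin heavy chain, had 132, 208 and 469 reads in the WT libraries and 0, 0 and 1 in the KO libraries. Relative to library size this is a ratio of 784, with an exact 95% interval of 140 to 31010 that covers counting error only. Trbc2, a constant region of the T cell receptor beta chain, had 108 reads in WT and 7 in KO, a ratio of 14.955 (7.02 to 38.1). Ighv1-81 and Trbc2 passed the filter through the WT libraries alone, so they had to differ, and their calls (limma adjusted p = 0.0057 and 0.0235) support nothing beyond that. Trbc2 is one of the T cell markers, and without it their summed RPKM was 15.4 to 29.6 in WT and 7.31 to 9.72 in KO. The part of B and T cells in these values was not tested. Gene segments of this kind resemble each other, so their reads may be split.

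The predicted genes among the calls included 4 small RNA genes, 3 of them at few reads. Gm23167 had 11 reads in WT and 0 in KO, at least 1.17-fold lower with a floor of 3 reads per library taken for KO, and Gm24091 had 18 and 3 reads, a ratio of 5.82 (exact 95% interval 1.70 to 30.8). Gm26287 had 0 reads in WT and 9 in KO, at least 1.04-fold higher. Gm23167 passed the filter through the WT libraries alone and Gm26287 through the KO libraries alone, so both had to differ. Each of the 3 lies within a longer gene that did not differ beyond the test. The microRNA gene Gm24270 (-1.20), the pseudogene Gm15720 (-1.89) and the long noncoding RNA genes Gm26809 (-1.52) and Gm28875 (-0.89) were called lower too. Gm15720 had no more than 14 reads in any library. With voom on recovered reads, Gm15720 (adjusted p = 0.258) and Gm24270 (0.279) were not called, while Gm26809 (0.0493) and Gm28875 (0.0172) were. Gm15720 overlaps Itpr2 and Gm24270 overlaps Peak1, each on the same strand, so shared reads cannot be told apart. Neither Itpr2 (0.02) nor Peak1 (-0.23) was called.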

How the data were processed

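RNA was measured in 6 pre-cDC1 libraries, 3 WT and 3 KO, made per the labels' protocols by SMARTSeq v2 from 2 ng of RNA with ERCC spike-ins. The submitters' processing notes name STAR 2.3, the build GRCm38 (mm10), featureCounts 1.5.0, R 3.3.3 and edgeR. The annotation release, the strand setting and the cell isolation were not given in the sources used here. The deposited values are log2 RPKM of 52550 genes, and no further pseudocount was added.

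Whole reads were recovered by solving the log2 RPKM with gene lengths of GENCODE mouse release 21. All 490350 values of the 49035 genes found there were whole within 0.001 reads, with a mean offset of 0.245 reads. Reads served for totals, floors, intervals and 1 alternative. The libraries come from PCR without molecular identifiers, so intervals cover counting error only.

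limma 3.58.1 in R 4.3.3 compared the groups in the 6 libraries by eBayes, with the variance trended on mean level (4 residual and 3.419 prior degrees of freedom), two-sided, with Benjamini-Hochberg adjustment over 11837 genes and 0.05 as threshold. The filter was log2 RPKM above 0 in at least 3 libraries. In the third highest library, Gm12254 was just inside it at 0.00042 and 9330136K24Rik just outside at -0.0004. Coordinates were printed for genes with the same versioned identifier in GENCODE (10213 members).

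The members and the 40 gene lists (1218 genes, 950 of them members) were chosen with earlier results of these data known, so lists were described by counts and medians and not tested. Named were the 15 largest falls and 11 largest rises among calls whose mean was 1 log2 RPKM or more, the 4 smallest p of each list described, a fixed set, and the remaining calls, chosen after their values were seen. On simulated data with 11837 genes and 3 libraries a group, 13 of 66 genes planted at 4-fold were recovered (19.7%), 0 of 67 at 2-fold and 0 of 67 at 1.5-fold. The simulation assumed the same dispersion for every gene, not estimated from these libraries, so it does not give the power of this comparison. In the real fit the smallest called difference was 0.62 log2 in size. Some called genes are not reported here.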

Additional observations from a re-analysis of the deposited data

How the results depend on the processing

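The fit was repeated with other filters, 1 RPKM added before the log2, quantile normalization, median centring, no trend, robust eBayes, library weights, all 10 libraries in the fit, a replicate block, and each library left out. A quasi-likelihood count test on recovered reads was not run, because the deposited unit is log2 RPKM, and voom on recovered reads, chosen after seeing the data, was run in its place. Against 82 calls (13 higher, 69 lower), no trend gave 28 (7 and 21), robust eBayes 128 (28 and 100), all 10 libraries 15 (0 and 15) and voom 198 (53 and 145). Of the 82, 18, 82, 14 and 74 were called in these 4. No filter, the filter above 1, 1 RPKM added, quantile normalization, median centring and library weights gave 85 to 115 calls, 75 to 82 of them shared. Genes called higher were 24 with the filter above 1, 24 with quantile normalization and 20 with median centring. Leaving out 1 library gave 0 to 42 calls, 0 to 4 of them higher and 0 to 39 lower. With fewer libraries the test has fewer degrees of freedom.

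With the replicate number as a block, 5 genes were called, 0 higher and 5 lower. The numbers share no origin in the labels and do not pair the libraries, since the correlations of same-numbered deviations were -0.035, -0.027 and 0.011, and 2 of 6 libraries correlated best with their own number.

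Of 205 named genes, 7 turned direction in at least 1 repeat, and 0 of these 7 were called. With 1 library left out, Adam17 ranged from -0.264 to 0.0728 log2, Cd8a from -0.0708 to 0.0659, Flt3 from -0.0282 to 0.142, Flt3l from -0.0179 to 0.295, Ly6c2 from -0.531 to 0.0152, Nfil3 from -0.5595 to 0.0664 and Zbtb46 from -0.0586 to 0.0472. Cd8a was at 0.023 with quantile normalization and 0.0069 with voom, and Zbtb46 at 0.0226 and 0.0205. A gene not called is not shown to be equal. Below 1 log2 RPKM the median standard error was 0.65, against 0.11 above 7. The medians of list differences changed sign in at least 1 repeat for FLT3, core cDC, G1 and S phase entry, Toll-like receptor, interferon, unfolded protein response and BCL2 lists, all with medians within 0.05 of 0.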

Other observations

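The remaining lists held no call besides those in the report. Of 10 tested DC progenitor genes 0 were called, with a median of -0.21 log2, and Nkg7, a granule protein shared with NK cells, was at 2.06, 2.56 and 2.04 log2 RPKM in the WT libraries and 0.50, 0.66 and 0.56 in KO (-1.65 ± 0.28, limma adjusted p = 0.0573). Of 26 genes of the unfolded protein response 0 were called, with a median of 0.03, and Herpud1, a protein of endoplasmic reticulum degradation, was at 8.16, 8.08 and 8.17 in WT and 7.84, 7.72 and 7.75 in KO (-0.37 ± 0.08, adjusted p = 0.118). Glycolysis (25 tested, median -0.06) and ribosome biogenesis with MYC targets (37 tested, median 0.03) held 0 calls. The BCL2 and caspase list of 26 had a median of -0.01. Of 5 tested platelet and 4 tested stromal and endothelial markers 0 were called.

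By gene type, 58 of the 82 called genes (70.7%) were annotated as protein coding, against 68.5% of all members. Called genes had a median mean level of 4.05 log2 RPKM, against 2.68 over all members.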
